A study of Mus with 18 samples.

Results

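Uninjured lens epithelial cells (LECs) of 2 knockout lines, Egr1KO and FosBcKO, were compared directly with each other. The comparison uses the 3 libraries titled as Egr1 null and the 3 titled as FosB null at zero hours, 6 of the 18 libraries of the series, and draws on no wild type (WT) library. The other 12 libraries hold WT at 0 h and all 3 genotypes at 6 h after the lens fiber cells were removed by surgery, a mouse model of cataract operations (times after it are marked PCS, post cataract surgery). They took no part in the main calls and are used where named, for the level of WT, the difference at 6 h, the injury response and some estimates of spread.

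Egr1KO mice were homozygous for a systemic Egr1 knockout, in which a neo cassette inserted into exon 2 truncates the protein. FosBcKO mice carried floxed FosB alleles that were deleted in the lens by the mlr10cre transgene, a Cre recombinase driven by a modified promoter of the alpha-A crystallin gene. All animals were 3 to 5 months old and are labelled C57BL/6. Per the methods, the Egr1 line came from a stock with both B6N and 129 ancestry, and the Cre transgene was backcrossed from FVB/N. Each library pooled 5 lens capsules with their attached cells. The 0 h capsules were taken at once after fiber cell removal, from mice whose other eye had been operated 6 h earlier, so both groups share that exposure. The groups differ in the targeted gene and in where it was lost, in the whole animal or in the lens. They also differ in the cassette, floxed alleles and Cre transgene and in the ancestry of the lines. These differences cannot be told apart by this comparison. Nothing in the labels says that a capsule pool of one line was matched to a pool of the other, and the p-values measure the spread between pools.

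The lens epithelium is a single layer of cells under the anterior lens capsule, which divides slowly and supplies the fiber cells that form the bulk of the lens. Egr1 is a zinc finger transcription factor and FosB a subunit of the dimeric AP-1 factors. Both are immediate early genes, which resting cells transcribe at low levels and switch on within minutes to hours of a stimulus through MAPK signaling. At 0 h the comparison therefore asks how far the transcriptomes of lenses lacking either factor differ before the injury response. As the tables carry Ensembl gene IDs without names, the knockouts were not checked by the counts of Egr1 and Fosb, the cell identity was not checked by markers, and Egr1KO and FosBcKO name the libraries so labelled. In pooled tissue, fewer cells of a type and less RNA per cell cannot be told apart.

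Depth was even, at 9609295 to 12255838 read pairs counted in genes per library, and 19121 to 21139 genes had a count. The 10 most abundant genes took 20.97% to 23.64% of the counted pairs. Read pairs that fell in no annotated gene were 11.2% ± 2.21 (SD, n = 3) of the total in Egr1KO and 13.2% ± 6.81 (SD, n = 3) in FosBcKO, where the replicate 2 library stood apart at 20.9%. Replicates were not copies of one library, since counts of any pair within a group differed by a chi-square of 10.4 to 27.0 per degree of freedom. In a principal component analysis of log2 CPM (counts per 1000000 counted pairs), the leading component, with 29.8% of the variance, placed the Egr1KO libraries between 6.84 and 47.0 and the FosBcKO libraries between -34.4 and -12.8, so that the genotypes did not overlap on it. They did overlap on components 2 and 3, with 25% and 18% of the variance.

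Of 14167 genes tested, 136 (0.96%) were differentially expressed genes (DEGs). A DEG had to change more than 2-fold and reach an FDR, the exact test's p-value in edgeR after Benjamini-Hochberg adjustment, no higher than 0.05. Egr1KO was the lower group in most of them. There were 104 DEGs lower in Egr1KO than in FosBcKO (0.734% of genes) and 32 higher (0.226%). The median log2 fold change, given throughout as Egr1KO minus FosBcKO, was -1.51 among the lower and 1.70 among the higher DEGs, against -0.01 over all genes tested. By edgeR's quasi-likelihood F-test, 65 genes (0.459%) were called, 50 lower (0.353%) and 15 higher (0.106%) in Egr1KO, and all 65 were among the 136. The CPM of the Egr1KO and FosBcKO libraries did not overlap in any of the 136 DEGs, nor in 15.8% of all genes tested. The count of lower DEGs was 66 without FosBcKO replicate 1 and 153 without Egr1KO replicate 2. When dispersions were estimated with the WT libraries at 0 h included, 61 genes were called, 35 lower and 26 higher, and with all 18 libraries 44, 30 lower and 14 higher.

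**Figure D1:**
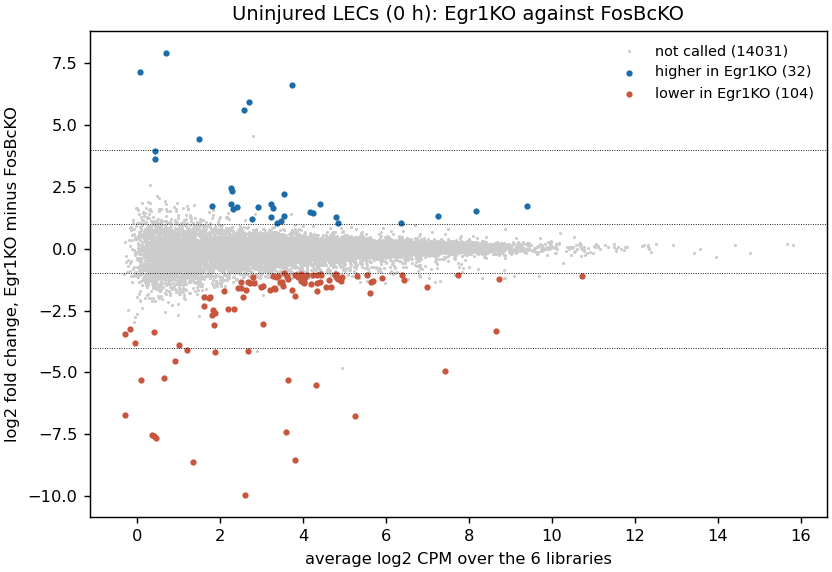
Log2 fold change of Egr1KO against FosBcKO at 0 h (y axis) by average log2 CPM (x axis), 1 point per gene tested, with dotted lines at 2-fold and 16-fold. The 104 DEGs lower in Egr1KO and the 32 higher ones include 24 beyond 16-fold, a limit that does not mark a gap in the fold changes.

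The DEGs were grouped by size at preset limits of 4-fold and 16-fold, which do not mark a gap in the fold changes. Changes of more than 16-fold were found in 24 DEGs, 18 lower and 6 higher in Egr1KO. A further 20 changed between 4- and 16-fold, 15 lower and 5 higher, and 92 between 2- and 4-fold, 71 lower and 21 higher. The DEGs over 16-fold were of low abundance, with a median average log2 CPM of 1.67. It was 3.98 in the class of 2- to 4-fold and 4.05 over all genes tested. No DEG of 2- to 4-fold lay below an average log2 CPM of 1.61, as small changes are hard to call where reads are few. The part of this limit in the medians was not tested. Both tests largely shared the first class and not the last, as the quasi-likelihood F-test called 21 of the 24 DEGs over 16-fold but 33 of the 92 DEGs between 2- and 4-fold.

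Many of the largest differences were between a group with reads and a group with next to none. In 6 DEGs the 3 Egr1KO libraries held no read, while the FosBcKO mean ran from 1.25 to 11.8 CPM. In 2 DEGs the 3 FosBcKO libraries held no read, with an Egr1KO mean of 1.66 and 2.78 CPM. Such genes passed the filter on reads through the other group alone, and their share among all genes tested was not counted. Set against a floor of 3 counts over the group without reads, these 8 genes differed by at least 13.5-fold to at least 127-fold. With these genes at their bounds, 23 DEGs remained over 16-fold, 17 lower and 6 higher in Egr1KO. Their fitted fold changes depend on a prior count and are not bounds. With bounds in place, the median log2 fold change in the class over 16-fold was -5.08 among the lower and 5.25 among the higher DEGs.

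ENSMUSG00000101939 had the highest log2 fold change of the genes above the abundance limit. The Egr1KO libraries 1 to 3 held 30.8, 22.9 and 23.6 CPM at 0 h, and the FosBcKO libraries held 0.357, 0.104 and 0.291 CPM, from 4, 1 and 3 reads. The gene was thus close to absent in FosBcKO at 0 h and present in both other genotypes, since the WT libraries held 31.0, 23.5 and 29.1 CPM, within the range of Egr1KO or next to it. Egr1KO exceeded FosBcKO by 6.61 ± 0.37 (SE) on the log2 scale (edgeR exact test, FDR 1.78e-53), and the gene was called in all 17 alternatives. As it was picked for its fold change in these same libraries, those calls are no independent support. In their own comparisons with WT, which share the WT libraries, the log2 fold change was -6.70 for FosBcKO (exact test, FDR 1.36e-47) and -0.08 for Egr1KO (exact test, FDR 1). FosBcKO remained the lowest group at 6 h, with 69.6, 55.8 and 46.0 CPM in Egr1KO, 3.35, 0.0864 and 0.430 CPM in FosBcKO and 56.5, 26.4 and 62.5 CPM in WT.

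ENSMUSG00000112825 showed the other arrangement, with reads in Egr1KO where both FosBcKO and WT had few or none. Its 0 h values were 8.98, 11.5 and 16.1 CPM in Egr1KO and 0.0892, 0.311 and 0.194 CPM in FosBcKO, and no WT library held a read at 0 h. The difference between the knockouts was 5.92 ± 0.51 (SE) on the log2 scale (edgeR exact test, FDR 5.3e-23). It was called in all 17 alternatives, with the same limit, as this gene was picked in the same way. At 6 h the Egr1KO libraries held 8.31, 9.44 and 8.38 CPM, the FosBcKO libraries 0.172, 0.0864 and 0.172 CPM and the WT libraries 0.377, 0.806 and 0 CPM. The log2 fold change at 6 h was 5.92 (exact test, FDR 1.1e-16), close to its value at 0 h.

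ENSMUSG00000088025 had the lowest log2 fold change. No Egr1KO library held a read at 0 h or at 6 h, whereas the FosBcKO libraries held 14.5, 14.4 and 6.50 CPM at 0 h and 17.0, 5.10 and 6.19 CPM at 6 h. Egr1KO was at least 127-fold lower at 0 h and at least 109-fold lower at 6 h, set against a floor of 3 counts over the group. The exact test gave an FDR of 3.31e-25 at 0 h and of 3.52e-12 at 6 h. The WT libraries were split for this gene, with 11.1 CPM in replicate 1 and no read in replicates 2 and 3 at 0 h, and 24.0 CPM in replicate 1 and no read in the other two at 6 h. The call held in 15 of 17 alternatives. With the WT libraries included in the dispersion estimate, from the 9 libraries at 0 h or from all 18, the exact test FDR was 0.682 and 0.663, against a range of 1.12e-30 to 0.682 over all alternatives.

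ENSMUSG00000072476 followed the same arrangement at a lower level. It had no read in Egr1KO at 0 h and 5.09, 7.57 and 1.65 CPM in FosBcKO, at least 50.8-fold lower in Egr1KO (edgeR exact test, FDR 4.27e-09). Again WT replicate 1 stood with FosBcKO, at 5.27 CPM against 0 and 0.487 CPM in WT replicates 2 and 3. At 6 h the FosBcKO libraries held 1.37, 2.42 and 1.29 CPM, and 3 reads in 1 library were the only ones in Egr1KO. WT replicate 1 held 3.02 CPM at that time and WT replicates 2 and 3 held 0.302 and 0 CPM. The same alternatives as above ended the call at 0 h, with FDR values of 0.0611 and 0.0879 by the exact test, in a range of 2.69e-12 to 0.0879 over all alternatives.

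**Figure D2:**
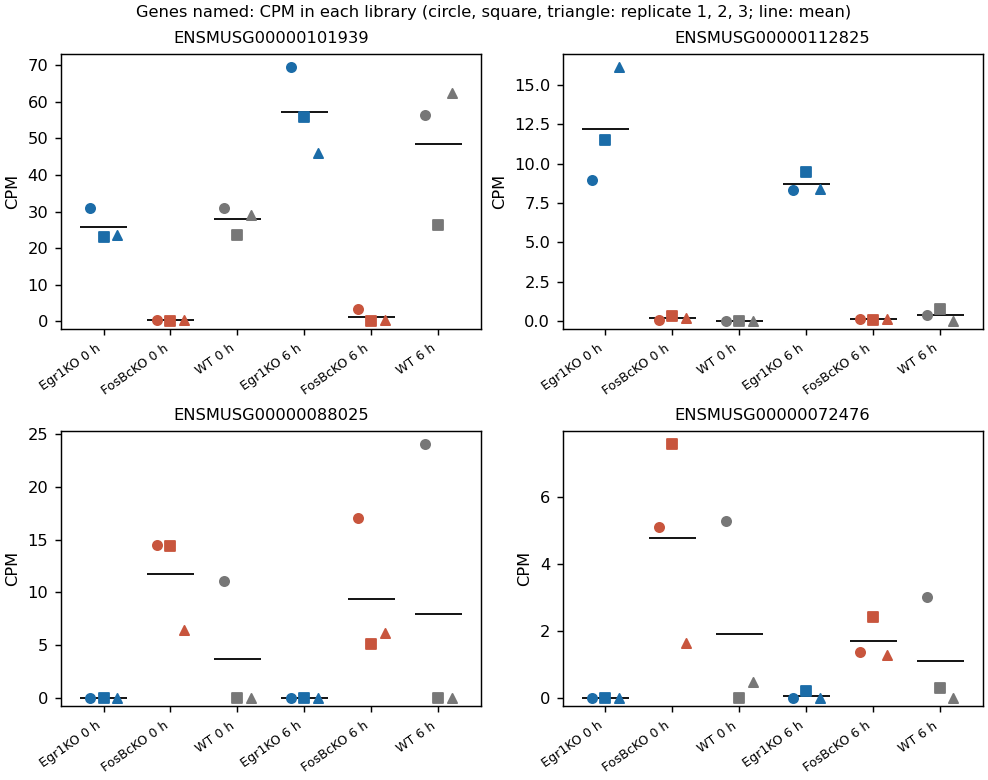
CPM (y axis, linear) of the 4 genes named, in each of the 18 libraries by genotype and time (x axis). Marker shapes give the replicate number and lines the group means, and WT replicate 1 lies apart from WT replicates 2 and 3 for ENSMUSG00000088025 and ENSMUSG00000072476 at both times.

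The most abundant DEG of each class, picked for its level and so after its values were seen, shows the pools of each class. Among the 18 DEGs lower in Egr1KO by over 16-fold, the most abundant one held 11.3, 8.93 and 11.4 CPM in Egr1KO and 316, 419 and 264 CPM in FosBcKO at 0 h, a difference of -4.95 ± 0.18 (SE) on the log2 scale (edgeR exact test, FDR 6.58e-118). This gene too split the WT pools, which held 357, 10.7 and 8.76 CPM at 0 h and 307, 9.27 and 5.34 CPM at 6 h. WT replicate 1 thus carried the FosBcKO level at both times and the other WT pools the Egr1KO level. The most abundant DEG lower in Egr1KO by 4- to 16-fold held 78.6, 84.9 and 51.7 CPM in Egr1KO and 586, 851 and 750 CPM in FosBcKO (log2 fold change -3.33, standard error 0.20, exact test FDR 3.49e-47). Here WT, at 875, 613 and 452 CPM, lay with FosBcKO in all 3 pools.

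The genes chosen this way in the class of 2- to 4-fold were called by the exact test and not by the quasi-likelihood F-test. The most abundant DEG lower in Egr1KO by 2- to 4-fold held 699, 1313 and 1220 CPM in Egr1KO and 2808, 1945 and 2245 CPM in FosBcKO, and WT spread across both groups at 1033, 113 and 1742 CPM. Its difference was -1.10 ± 0.29 (SE) on the log2 scale, and its FDR was 0.0179 by the exact test and 0.345 by the quasi-likelihood F-test. The most abundant DEG higher in Egr1KO by 2- to 4-fold likewise held 1662, 873 and 529 CPM in Egr1KO against 306, 368 and 271 CPM in FosBcKO, with FDR values of 0.0232 by the exact test and 0.416 by the quasi-likelihood F-test. Of the 71 DEGs lower in Egr1KO by 2- to 4-fold, Egr1KO replicate 1 was the lowest of its group in 49 and Egr1KO replicate 2 the highest in 46. In FosBcKO, replicate 1 was the highest in 49 of the 71 and replicate 2 the lowest in 39. Such orders were not counted over all genes tested. Among the 6 knockout libraries at 0 h, FosBcKO replicate 2 also had the largest share of pairs outside genes, and the part of that share in these differences was not tested.

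The level of WT was set beside both knockouts. For each DEG the 3 WT libraries at 0 h, which took no part in the calls, were placed above or below the midpoint between the Egr1KO and FosBcKO means of log2 CPM. All 3 lay on the Egr1KO side in 34 of the 136 DEGs (25%) and on the FosBcKO side in 21 (15.4%), and they were split in 81 (59.6%). Over all genes tested these shares were 19.1%, 20.8% and 60.1%. The 2 directions differed, with 20.2%, 10.6% and 69.2% of the 104 lower DEGs and 40.6%, 31.2% and 28.1% of the 32 higher DEGs. The shares over all genes were not divided by direction. In the 18 DEGs lower in Egr1KO by over 16-fold, the WT pools all lay on the Egr1KO side in 10, on the FosBcKO side in 1 and were split in 7. In those 10 genes all WT pools were nearer to Egr1KO than to the higher FosBcKO. In the 6 DEGs higher in Egr1KO by over 16-fold, WT lay with Egr1KO in 2, with FosBcKO in 2 and was split in 2.

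The WT libraries were also placed one by one. Of the 18 DEGs lower in Egr1KO by over 16-fold, WT replicate 1 lay on the FosBcKO side in 6, WT replicate 2 in 2 and WT replicate 3 in 3. At 6 h, by the midpoint of the 6 h libraries, these numbers were 7, 2 and 2. For the 86 DEGs lower in Egr1KO by 2- to 16-fold the order was another one, as WT replicate 2 lay on the Egr1KO side in 71 and WT replicate 3 on the FosBcKO side in 66, while WT replicate 1 was divided, with 44 on the Egr1KO side and 42 on the FosBcKO side. At 6 h these orders were not the same, with 24, 18 and 24 of 85 such DEGs on the FosBcKO side in WT replicates 1 to 3. Single WT libraries were not placed over all genes tested, so whether these orders are particular to the DEGs was not tested.

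**Figure D3:**
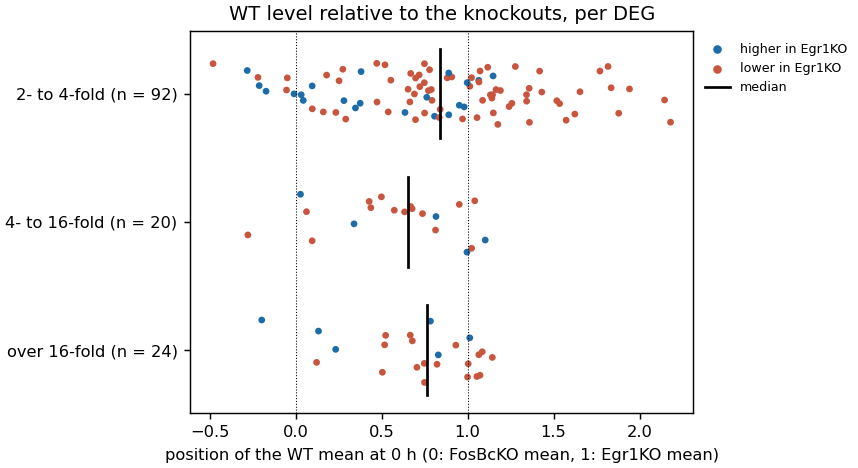
Position of the WT mean at 0 h on the line from the FosBcKO mean (0) to the Egr1KO mean (1), in log2 CPM, for each DEG by size class (y axis, points spread vertically for legibility). The median was 0.767 over 16-fold, 0.651 from 4- to 16-fold and 0.838 from 2- to 4-fold. In the last class 37 of 92 DEGs had a WT mean beyond that of Egr1KO, but a single WT pool can pull that mean. The DEG with the highest position, 2.18, held 14.8, 0.533 and 30.3 CPM in WT replicates 1 to 3. Its Egr1KO libraries held 14.2, 16.1 and 20.5 CPM. How many positions rest on 1 pool was not counted.

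Whether the differences at 0 h were also present after injury was examined in the 6 knockout libraries at 6 h PCS. These are other libraries, though per the labels they came from fellow eyes of the same mice. Of the 136 DEGs, 127 could be tested at 6 h, and 124 of these (97.6%) had a fold change of the same sign, as had 61.2% of all genes tested at both times. The exact test at 6 h called 72 of the 136 (52.9%) in the same direction and 0 in the opposite direction, beside 397 of 15885 genes (2.5%) called at 6 h in all. Among the DEGs lower in Egr1KO at 0 h, 64 of 104 (61.5%) were called lower at 6 h, against 2.28% of all genes. Among those higher in Egr1KO, 8 of 32 (25%) were called higher at 6 h, against 0.22% of all genes. By size, 15 of the 18 DEGs over 16-fold that could be tested at 6 h were called again, 9 of 18 between 4- and 16-fold and 48 of 91 between 2- and 4-fold. The median log2 fold change of the lower DEGs was -1.51 at 0 h and -1.61 at 6 h, and that of the higher DEGs was 1.70 and 1.26. With the quasi-likelihood F-test at 6 h, 44 of the 136 were called in the same direction, and with a replicate block added to it, 3 were, out of 4 genes called in all. That block joins pools of both lines by their number, though no label matches them, and leaves fewer degrees of freedom.

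**Figure D4:**
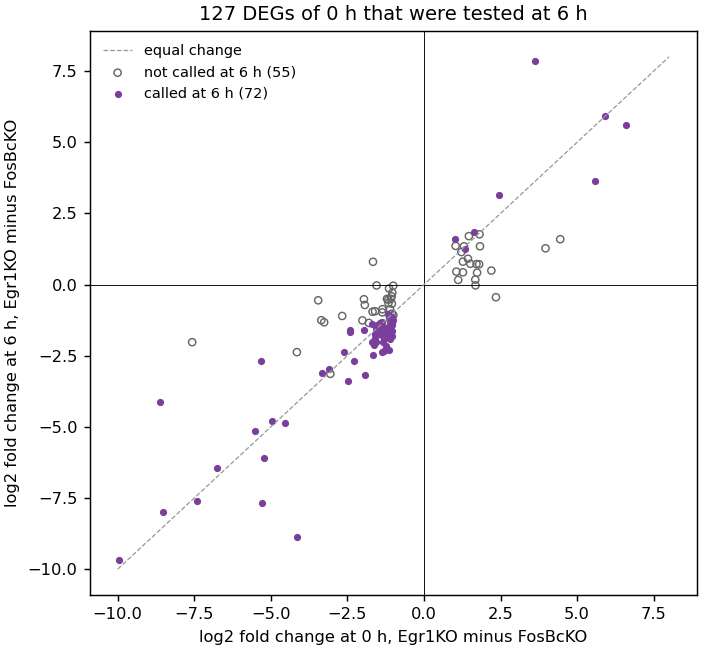
Log2 fold change of Egr1KO against FosBcKO at 6 h (y axis) and at 0 h (x axis) for the 127 DEGs of 0 h that were tested at 6 h. The 72 filled points were called at 6 h, all of them in the quadrants of equal sign, and the dashed line marks equal change. Fold changes of genes without a read in one group depend on the prior count.

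The change of the difference between 0 h and 6 h was tested itself, as an interaction of genotype and time over the 12 knockout libraries. The quasi-likelihood F-test called 0 of 16638 genes (775 had p under 0.05 before adjustment), and DESeq2 called 5, none of them a DEG of 0 h. Among the 136 DEGs, 19 had an unadjusted p-value under 0.05, and in 14 of these the change went against the 0 h difference. Of the 14167 genes tested at 0 h, 661 had such a p-value, and 477 of them changed in that way. The most abundant DEG higher in Egr1KO by 4- to 16-fold is an example of a smaller difference, with 20.1, 22.5 and 13.5 CPM in Egr1KO and 5.44, 2.28 and 4.46 CPM in FosBcKO at 0 h, but 26.6, 33.4 and 34.2 CPM and 28.3, 20.9 and 22.7 CPM at 6 h. Its log2 fold change was 2.20 at 0 h (exact test, FDR 6.21e-08) and 0.49 at 6 h (exact test, FDR 0.572). The interaction was -1.67 on the log2 scale (quasi-likelihood F-test, unadjusted p 0.000628) and was not called after adjustment. The gene was picked among DEGs of 0 h, a choice that favors smaller differences at 6 h. The absence of calls by the quasi-likelihood F-test does not show that the differences were equal at both times.

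The DEGs were also set beside the injury response of WT LECs, from 6 WT libraries that the 0 h contrast does not use. In WT, 2082 of 15440 genes (13.5%) were higher at 6 h PCS than at 0 h and 563 (3.65%) were lower, by the quasi-likelihood F-test at the same limits. Of the 104 DEGs lower in Egr1KO, 86 could be tested in WT, and of these 15 (17.4%) rose with injury and 1 (1.16%) fell. Among all genes tested in both comparisons, 11.5% rose and 4.01% fell. Out of all lower DEGs, tested in WT or not, 15 of 104 (14.4%) rose. On that base the number changed with the set of DEGs, to 7 of 88 without Egr1KO replicate 3 and 5 of 50 by the quasi-likelihood F-test. It was 9 of 35 with dispersions from the 9 libraries at 0 h and 6 of 30 with those from all 18. Of the 32 DEGs higher in Egr1KO, 30 could be tested, and of these 2 (6.67%) rose and 5 (16.7%) fell. None of the 24 DEGs over 16-fold was called in WT by the quasi-likelihood F-test, but only 8 of these 24 had enough reads in WT to be tested. All 5 DEGs that were higher in Egr1KO and fell with injury in WT were among the 21 higher by 2- to 4-fold.

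**Figure D5:**
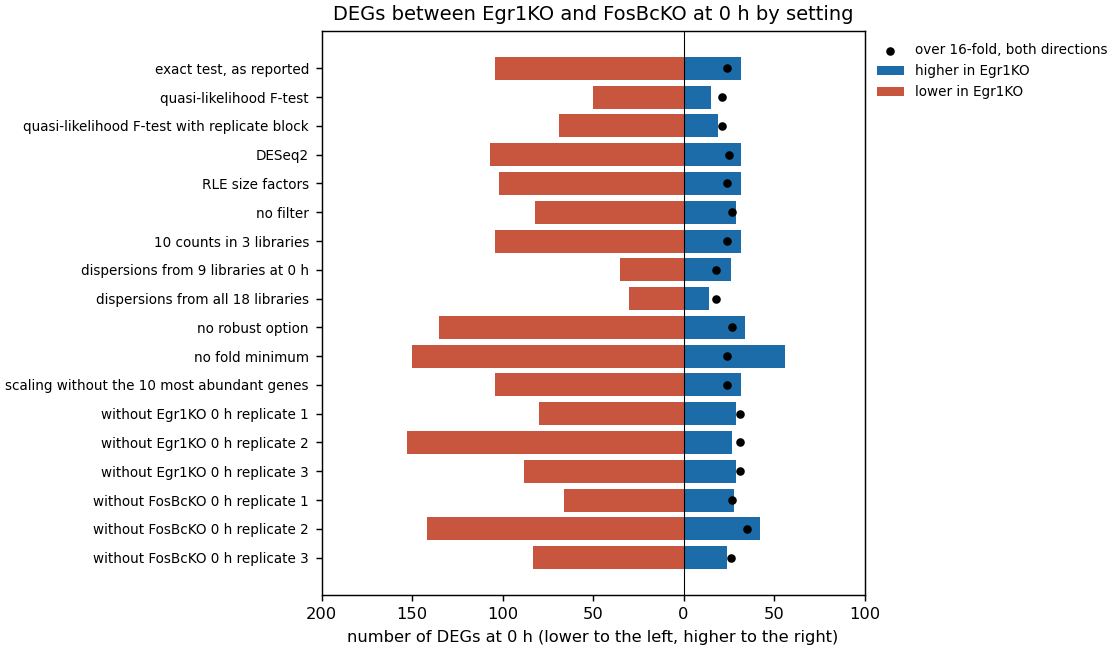
Number of DEGs between Egr1KO and FosBcKO at 0 h (x axis, lower in Egr1KO to the left, higher to the right) under the reported exact test and each alternative (y axis), with black points for DEGs over 16-fold. The total ran from 44 to 206, while the number over 16-fold stayed between 18 and 35.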

How the data were processed

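RNA was measured in 18 libraries of mouse lens capsules, of which the 6 knockout libraries at 0 h form the comparison. Libraries were stranded, depleted of ribosomal RNA and sequenced from both ends. The authors used Hisat2 for alignment and HTSeq-count (union mode), and deposited unnormalized counts, one value per Ensembl gene. The methods name the GRCm38 assembly and the processing notes GRCm39, and no coordinate is used here. The 6 libraries held 9609295 to 12255838 counted pairs each, which was 55.3% to 65.6% of all pairs. The remainder, HTSeq's summary categories, entered neither library sizes nor tests. No molecular identifiers were stated, so the counts may hold PCR copies. Floors of 3 counts cover counting error only.

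edgeR 4.0.16 in R 4.3.3 was used with filterByExpr, TMM scaling and robust dispersions. The study used the quasi-likelihood F-test at first and the exact test in later analyses. Here the exact test compared Egr1KO with FosBcKO on the 6 libraries of a time point, with Benjamini-Hochberg adjustment over all genes tested. Standard errors and the genotype by time interaction, fitted on the 12 knockout libraries, come from the quasi-likelihood F-test, and so does WT at 6 h against 0 h. CPM are counts per 1000000 counted pairs. WT levels were set beside the knockouts as log2 CPM with a prior count of 2. The study's further limits on FPKM were not applied. Alternatives, also with DESeq2 1.42.0, are given with the closing remarks. The tests were checked on simulated counts.

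No names stand beside the gene IDs in the tables, and 0 of the 55416 IDs were found in the RefSeq table used for names. Names the study gives elsewhere were not used. Results that need names (levels of Egr1 and Fosb, cell type markers, pathway lists and promoter motifs) are not analysed here. The IDs printed are the 2 highest and 2 lowest by log2 fold change among differentially expressed genes with an average log2 CPM of at least 1 and libraries that did not overlap. Groups and rules were chosen with earlier results of these data known.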

Additional observations from a re-analysis of the deposited data

How the results depend on the processing

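The number of DEGs at 0 h was 136 and depended on how the spread was estimated. It was 65 by the quasi-likelihood F-test (15 higher, 50 lower in Egr1KO), 61 with dispersions from the 9 libraries at 0 h (35 lower), 44 with dispersions from all 18 libraries (14 higher, 30 lower) and 206 without the fold minimum (56 higher). Leaving out 1 library at a time gave 94 to 184 DEGs, 24 to 42 higher and 66 to 153 lower. The total and the lower count were lowest without FosBcKO replicate 1, and the higher count without FosBcKO replicate 3. DESeq2, RLE size factors, the filter of 10 counts in 3 libraries, no filter, no robust option and scaling without the 10 most abundant genes, chosen after seeing the data, kept all 3 counts within 1.5 times. The fold changes of the 4 genes named kept their sign in every alternative. As these genes were picked for extreme fold changes and non-overlapping libraries, their sign could hardly have turned, and this shows no robustness. Nor do their calls in the alternatives, which reuse the same libraries. The alternative without the fold minimum is the main fit itself. DEGs over 16-fold numbered 18 to 35 over all the alternatives. Of the DEGs of 0 h, 72 were called at 6 h, 44 with the quasi-likelihood F-test at 6 h and 56 to 76 with 1 library left out. The interaction gave 0 genes, 5 with DESeq2, 28 without a filter and 0 to 13 with 1 library left out, with 13 called without Egr1KO replicate 1 at 6 h and 1 without Egr1KO replicate 2 at 6 h. The cause of these shifts was not tested.

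Same-numbered libraries of the knockouts at 0 h had correlations of their deviations of 0.0593, 0.199 and 0.0782. Not every library correlated best with its own number, as Egr1KO replicate 1 and FosBcKO replicate 3 had 0.12. Between 0 h and 6 h, same-numbered libraries had 0.0285, 0.173 and 0.0311 in Egr1KO and 0.21, 0.093 and 0.237 in FosBcKO. Whether same-numbered pools share more than a number is not settled by these values. Under a replicate block, the quasi-likelihood count was 88 genes (19 higher, 69 lower) at 0 h, 3 of the DEGs of 0 h at 6 h, and 0 interaction genes. Scaling without crystallin and mitochondrial genes needs gene names and was not run. A difference in genes without a read rests on counts of few reads, and depth limits it to the bounds given.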

Other observations

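A fold change of over 16-fold was fitted in 3 further genes that were not called at 0 h, and in 1 of them the Egr1KO and FosBcKO libraries did not overlap. In the WT libraries at 0 h, 17.8% ± 2.37 (SD, n = 3) of read pairs fell outside annotated genes, above the means of both knockouts.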
